A study of Mus musculus with 6 samples.

Results

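The IFIT proteins and the ISG15 pathway were followed through 10 genes chosen by symbol: Ifit1, Ifit2 and Ifit3, the modifier gene Isg15 with its enzyme genes Uba7, Ube2l6 and Herc6 and its protease gene Usp18, and the antiviral enzyme genes Rsad2 and Cmpk2. All 10 were among the 17254 genes seen in any library. Of these, 9 passed the filter of an average of 1 FPKM or more (FPKM, fragment counts scaled by transcript length and library total), which left 11717 genes for testing. Uba7, with a mean of 0.592 FPKM, lay below the filter, and its fold changes come from a fit without it, on 17209 genes. The p-values of that fit are not on one scale with those of the fit with the filter.

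RNA-seq had been performed on neonatal mouse neural stem/progenitor cells (NSPCs) after 48 h as mock-treated controls, with 5 µM paraquat (PQ) or with 5 mM N-acetylcysteine (NAC), with 2 libraries per group. PQ is a herbicide that takes part in redox cycling and generates superoxide, and NAC is a thiol antioxidant. PQ against control asks what an oxidant does to these genes and NAC against control what an antioxidant does, and PQ against NAC sets the treatments beside each other. The comparisons share libraries, so their values are given side by side. All groups came from an immortalized culture of the subventricular zone that carries a knockout of the Ink/Arf locus and was grown with EGF and bFGF, a mixed population that the methods describe as stem cells, neuronal precursors and oligodendroglial progenitors. The labels of control replicate 1 and PQ replicate 1 give the genotype Ink/Ark knockout, the strain C57BL/6 and a column kit for RNA extraction. The labels of control replicate 2, PQ replicate 2 and both NAC libraries name TRIZOL extraction and a BGISEQ-500 sequencer and leave genotype and strain open. The submitters' processing notes divide the libraries in the same way. Preparation therefore stands here for extraction, sequencer and processing together, which cannot be told apart. PQ can therefore be compared with control inside each preparation, whereas NAC shares its preparation only with control replicate 2 and PQ replicate 2. With all libraries and no covariate, NAC over control thus carries preparation. PQ over NAC also carries it, because 1 of the PQ libraries is a column kit library. A fit with preparation as a covariate takes its effect from control and PQ, and assumes that this effect is the same in every group.

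The expected counts summed to 9849392 and 10040827 in control, to 10388731 and 9680436 in PQ, and to 10698241 and 9907726 in NAC, replicate 1 before replicate 2, the order kept for all values that follow. Libraries of a group differed by more than sampling noise, with a chi-square per degree of freedom of 7.3 for control, 4.33 for PQ and 4.98 for NAC. For control and PQ this spread includes the difference in preparation, so it does not show that the libraries are independent. Each library was counted as a sample. Nothing in the labels says that libraries of a group came from separate cultures, so the p-values measure only the spread between these libraries, which may be technical. Cdkn2a, the gene of the targeted locus, had 137 and 162 expected counts in control, 120 and 130 in PQ, and 130 and 131 in NAC. These are counts over the whole gene, in which deleted and remaining exons cannot be told apart, so they do not check the knockout.

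The labelled cell type was compared with marker genes. All 8 neural stem and progenitor markers (Nes, Sox2, Pax6, Msi1, Egfr, Vim, Fabp7 and Hes1) were detected, meaning over 3 counts in some library, and summed to 3318 and 3390 FPKM in control, 3683 and 3738 in PQ, and 2584 and 2505 in NAC. Vim, the most abundant of them, carried the lower sum in NAC, with a log2 fold change over control of -0.75 ± 0.08 (SE, edgeR's quasi-likelihood test, adjusted p = 3.8e-06). Without Vim the sums were 1147 and 1067 FPKM in control, 1136 and 1091 in PQ, and 1222 and 1116 in NAC. The list thus did not move as a whole: besides Vim, edgeR called Nes higher in PQ (0.34, adjusted p = 0.0086) and lower in NAC (-0.28, adjusted p = 0.030) than in control, and Sox2 lower in PQ (-0.35, adjusted p = 0.014) and in NAC (-0.31, adjusted p = 0.027). These calls of Nes and Sox2 depend on single libraries. In PQ that of Nes was lost without PQ replicate 1 (0.34) or PQ replicate 2 (0.35) and that of Sox2 without control replicate 1 (-0.23), PQ replicate 1 (-0.34) or PQ replicate 2 (-0.37). In NAC that of Nes was lost without any 1 library (-0.30 to -0.25) and that of Sox2 without control replicate 1 (-0.19), NAC replicate 1 (-0.28) or NAC replicate 2 (-0.34), and both were lost with preparation as a covariate. Of 5 oligodendrocyte lineage markers 4 were detected, led by Olig2, and their sum ran from 277.7 to 369.9 FPKM. Of the 2 tested, Pdgfra was higher in NAC than in control (0.40, edgeR, adjusted p = 0.011), a call lost without control replicate 1 (0.33) or NAC replicate 2 (0.29) and with preparation as a covariate. Sox10 had at most 1 count in a library. All 4 astrocyte markers were detected, led by Slc1a3, and summed to 109.2 and 95.3 FPKM in control, 74.8 and 77.3 in PQ, and 134.3 and 133.8 in NAC. The astrocyte sum thus stood highest in NAC, where Gfap (log2 fold change over control 1.23, adjusted p = 3.1e-04) and Aqp4 (1.76, adjusted p = 1.4e-05) were higher by edgeR's test. Slc1a3 was lower in PQ than in control (-0.48, edgeR, adjusted p = 0.0016) and higher in NAC (0.29, edgeR, adjusted p = 0.034), the latter a call lost without any 1 library but control replicate 1 (0.19 to 0.31) and with preparation as a covariate. Of 5 neuron markers 4 were detected, and they summed to 2.8 and 1.99 FPKM in control, 1.35 and 1.0 in PQ, and 0.58 and 0.93 in NAC. Tubb3, the most abundant of them, was lower than control in PQ (-1.65, adjusted p = 0.0016) and in NAC (-2.27, adjusted p = 1.7e-05) in edgeR's fit without the filter. Its call in PQ was lost without control replicate 1 (-1.16) or PQ replicate 2 (-1.42). Microglia and macrophages, which express many interferon-stimulated genes (ISGs), have 8 markers in the list, of which 3 were detected. Csf1r, Aif1, Ptprc, Tyrobp and C1qa had at most 3 counts in every library, and the 8 summed to 2.07 and 2.02 FPKM in control, 3.09 and 3.14 in PQ, and 4.59 and 3.59 in NAC. P2ry12 led that sum and was higher in NAC than in control by 1.18 (edgeR, adjusted p = 0.0033), a call lost without NAC replicate 1 (0.86, edgeR, adjusted p = 0.090). Of 4 endothelial markers 1 was detected, Pecam1, with a summed level of 0.58 FPKM or less. Of 4 fibroblast and mural markers 2 were detected, led by Dcn, with sums of 0.49 and 0.44 FPKM in control, 1.91 and 0.9 in PQ, and 0.84 and 0.9 in NAC. Dcn had 5 and 1 counts in control, 24 and 8 in PQ, and 6 and 11 in NAC, and was higher in PQ than in control by 2.31 in edgeR's fit without the filter (adjusted p = 0.0092), with 3.80 without control replicate 1; the call was lost without control replicate 2 (1.58) or PQ replicate 1 (1.40). Between the treatments, edgeR called 10 of the 14 tested stem, astrocyte and oligodendrocyte lineage markers, where 16.0% of all genes tested were higher and 15.7% lower in PQ than in NAC. Higher in PQ than in NAC were Nes (0.62) and Vim (0.94). Lower were Pax6 (-0.38), Egfr (-0.47), Hes1 (-0.38), Gfap (-1.28), Aqp4 (-1.91), Slc1a3 (-0.77), Olig2 (-0.26) and Pdgfra (-0.49). Most of these calls held without any 1 library and with preparation as a covariate. The exceptions were Pax6, lost without PQ replicate 1 (-0.41), PQ replicate 2 (-0.35) or NAC replicate 1 (-0.28), Hes1, lost without PQ replicate 1 (-0.25) or NAC replicate 1 (-0.34) and with the covariate (-0.35), and Olig2, lost without PQ replicate 2 (-0.17), NAC replicate 1 (-0.27) or NAC replicate 2 (-0.25) and with the covariate (-0.31). The part of these markers' shifts in the values that follow was not tested. In RNA from whole cultures, more cells of a type and more RNA per cell cannot be told apart.

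Type I interferon (IFN-I) binds its receptor and leads through JAK kinases to the assembly of a transcription factor complex with STAT2 and IRF9, which switches on the ISGs. The IFIT proteins are built of tetratricopeptide repeats and bind foreign or unmethylated capped RNA and block its translation. ISG15 is a ubiquitin-like protein that an E1, an E2 and an E3 enzyme join to other proteins, often ones just being made, and that USP18 removes again. In the brain, loss of USP18 is known to leave interferon signalling unrestrained, above all in microglia.

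All 9 tested genes of the set rose in PQ over control. Across all genes tested, 9.76% were higher and 9.45% lower in PQ than in control (edgeR's quasi-likelihood test, adjusted p under 0.05 with Benjamini-Hochberg adjustment over all genes tested). The median log2 fold change of the 9 was 0.99, against -0.001 over all genes tested. In NAC over control 3 of the 9 rose, Ifit2, Ifit3 and Rsad2, where 9.01% of all genes were higher and 9.64% lower, and the median was 0.27, against -0.002 over all genes. Between the treatments, 8 of the 9 were higher in PQ than in NAC, all but Ifit2, where 16.0% of all genes were higher and 15.7% lower, and the median was 1.08, against 0.0. The same 8 were called in PQ over NAC with preparation as a covariate (edgeR). None of the 9 was lower in any of the 3 comparisons by edgeR, DESeq2 or limma at an adjusted p under 0.05, and at an unadjusted p under 0.05 edgeR gave 1, Ube2l6 in NAC over control. In the fit without the filter, 7.68% of all genes were higher in PQ than in control, 7.36% in NAC than in control and 12.5% in PQ than in NAC, and Uba7 was higher in PQ than in control and in NAC.

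**Figure D1:**
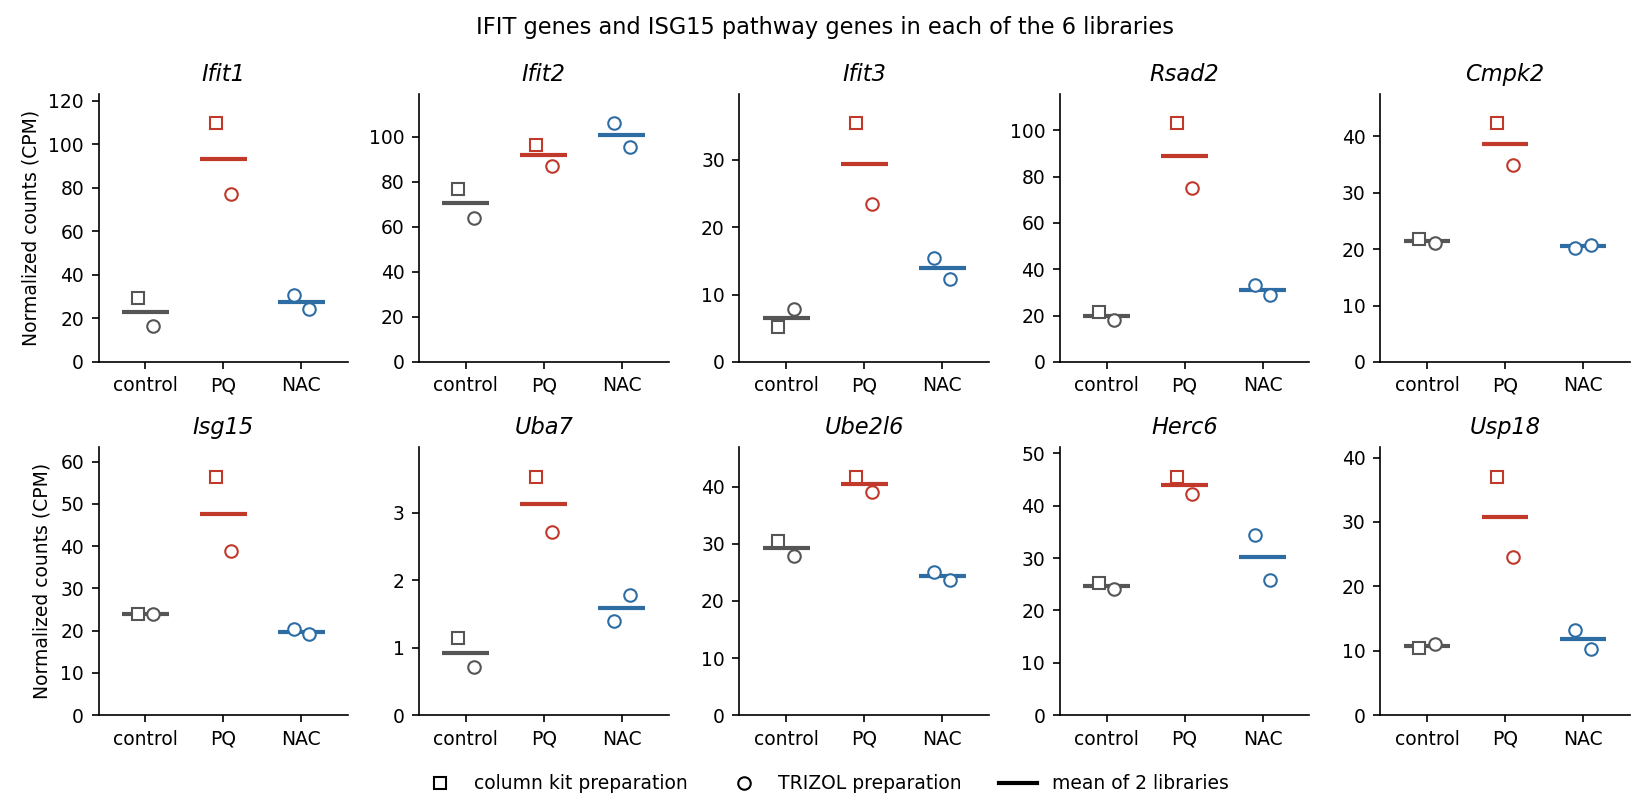
Normalized counts (CPM, y axis, from 0, scaled for each gene) of the 10 genes in the control, PQ and NAC libraries (x axis). Squares are column kit and circles TRIZOL preparations, and bars are the mean of 2 libraries. Both PQ libraries lie above all others for every gene but Ifit2, whose NAC libraries reached 105.9 and 95.2 CPM. How many of all genes show this order was not counted.

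In the plot of CPM by library, Ifit2 alone of the set did not have both PQ libraries at the top. Whether its fold changes differ from those of the other genes was not tested. CPM, the expected count scaled to library size after TMM normalization, is used within a gene, whereas levels of different genes are compared in FPKM. Summed over the 10 genes, control held 108.7 and 99.9 FPKM, PQ 263.6 and 195.0 FPKM, and NAC 122.1 and 109.8 FPKM. PQ replicate 1 stood above PQ replicate 2 for every one of the 10 genes, by 1.07 times for Ube2l6 up to 1.51 times for Ifit3. The share of all genes with this order was not counted. These libraries also differ in preparation, and the part of preparation in this gap was not tested.

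The promoters of 4 genes of the set and of Ifit3b, a copy of Ifit3, are shown because they hold the same short motif. The search was for the core letters of the interferon-stimulated response element, GAAA, any 2 bases, GAAA, on both strands in the 250 bases upstream of each start in RefSeq (GRCm38.p6). Of the 9 genes of the set with a promoter there, 4 held it (44.4%): Ifit1, Ifit3, Isg15 and Rsad2. It was not in the windows of Ifit2, Uba7, Ube2l6, Herc6 and Cmpk2, which says only that these letters are not in these windows. Usp18 is named only. Of all 32851 promoter windows, 2.98% held the motif, and of the 9339 tested genes with a promoter there 2.98% did. All 3 near relatives of the IFIT genes in the same locus, Ifit3b, Ifit1bl1 and Ifit1bl2, held it. In the stretches printed here, 5' to 3' on the gene's strand, capitals mark each match (read as its reverse complement where it lies on the opposite strand), and no base lies in an annotated exon. They were placed on mm9 by exact match: Ifit1 at chr19:34715234-34715360 on the plus strand, Ifit3 at chr19:34657819-34658018 on the plus strand, its copy Ifit3b at chr19:34682247-34682420 on the plus strand, Isg15 at chr4:155574928-155575127 on the minus strand and Rsad2 at chr12:27141318-27141517 on the minus strand.
Ifit1: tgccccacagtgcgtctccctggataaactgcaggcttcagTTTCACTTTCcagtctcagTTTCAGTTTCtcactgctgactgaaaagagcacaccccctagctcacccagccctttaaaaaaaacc
Ifit3: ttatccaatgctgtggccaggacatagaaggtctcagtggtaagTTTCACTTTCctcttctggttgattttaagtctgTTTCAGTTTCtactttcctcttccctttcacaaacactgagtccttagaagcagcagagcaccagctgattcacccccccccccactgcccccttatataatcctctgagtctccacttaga
Ifit3b: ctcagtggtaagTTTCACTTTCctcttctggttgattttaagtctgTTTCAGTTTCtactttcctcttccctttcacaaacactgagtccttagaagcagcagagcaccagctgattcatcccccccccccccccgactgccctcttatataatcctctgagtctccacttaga
Isg15: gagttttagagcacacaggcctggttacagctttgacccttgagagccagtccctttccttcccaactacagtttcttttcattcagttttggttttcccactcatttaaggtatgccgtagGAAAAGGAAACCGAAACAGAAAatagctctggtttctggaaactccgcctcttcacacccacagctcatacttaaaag
Rsad2: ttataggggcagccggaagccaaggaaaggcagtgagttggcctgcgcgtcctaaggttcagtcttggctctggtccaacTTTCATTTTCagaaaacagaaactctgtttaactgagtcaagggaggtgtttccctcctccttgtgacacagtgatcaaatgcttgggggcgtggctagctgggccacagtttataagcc
In Isg15 3 matches overlap in 1 run of capitals, and Ifit3 and Ifit3b carry the same pair of matches in nearly the same surroundings. A match is a description of letters and not a site of binding.

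**Figure D2:**
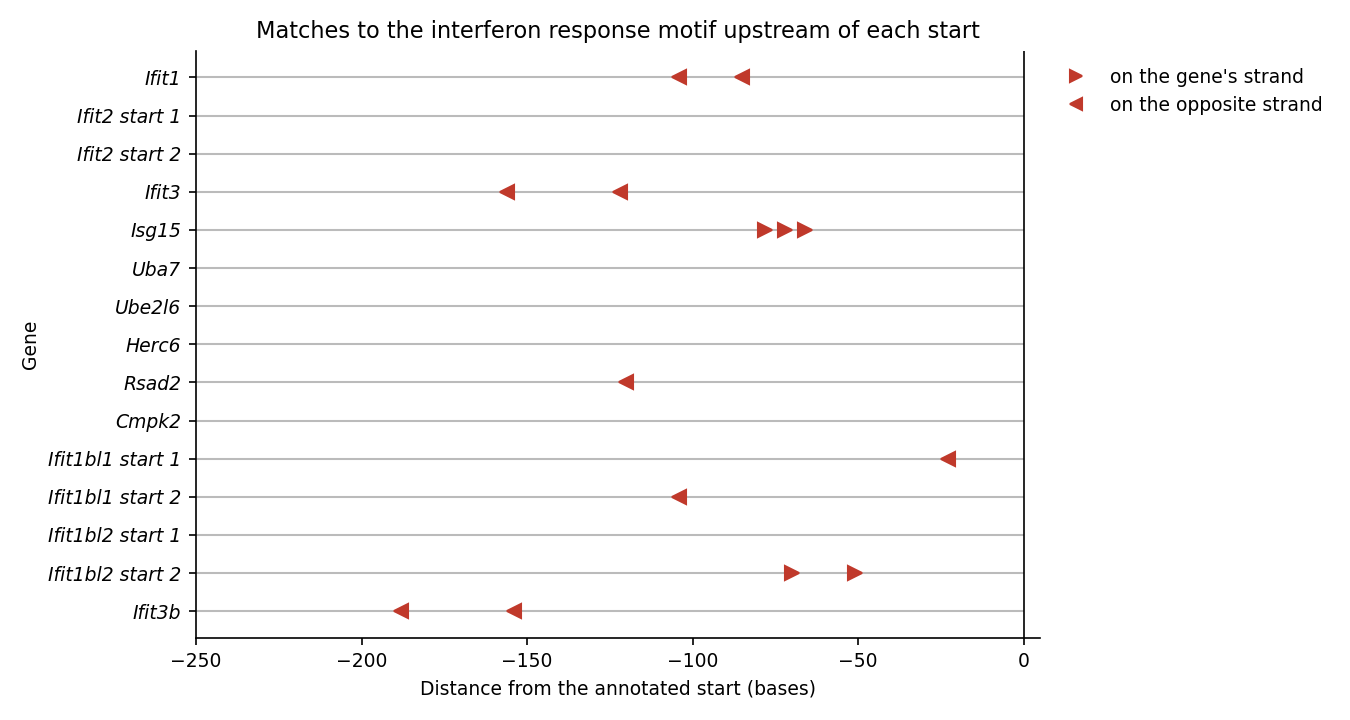
Positions of motif matches (triangles, pointing right on the gene's strand and left on the opposite strand) in the 250 bases upstream of each annotated start (x axis, bases from the start; y axis, gene and start). Isg15 has 3 matches with first bases from -78 to -66, Rsad2 has 1 at -120, and Ifit2, Uba7, Ube2l6, Herc6 and Cmpk2 have 0.

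The plot of motif positions also shows that the matches sat at different distances: those of Ifit1 began at -104 and -85, those of Ifit3 at -156 and -122, and those of Ifit3b at -188 and -154. The matches at -70 and -51 before the second start of Ifit1bl2 are those of Ifit1 read from the other side, since the promoter lies between these genes, which are transcribed in opposite directions. Among the 9 relatives of the ISG15 enzymes with a promoter there 1 held the motif, and among 8 genes of interferon signalling 1 did.

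The IFIT genes lie together. Ifit1 (NCBI gene 15957), Ifit2 (15958), Ifit3 (15959) and the paralogs Ifit3b, Ifit1bl1 and Ifit1bl2 fill 99.3 kb of mm9 chromosome 19, from chr19:34625184-34650909 for Ifit2 to chr19:34715361-34724499 for Ifit1, both on the plus strand. Their products differ in the RNA they hold: IFIT1 recognizes capped RNA that lacks methylation of its first nucleotide, IFIT2 prefers AU-rich double-stranded RNA, and IFIT3 acts mainly as a partner of other IFIT proteins.

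Ifit1 was measured at 29.5 and 16.6 CPM in control, 109.6 and 76.9 CPM in PQ, and 30.7 and 24.5 CPM in NAC. Both PQ libraries stood far above the rest, while the NAC libraries overlapped with control replicate 1. Its log2 fold change was 2.02 ± 0.20 (SE, edgeR's quasi-likelihood test, adjusted p = 1.7e-06) in PQ over control, a 4.07-fold rise, and ranked 23 of the 11717 genes. Within preparations it was 1.89 for the column kit and 2.22 for TRIZOL. PQ exceeded NAC by 1.76 ± 0.19 (edgeR, adjusted p = 1.5e-06). Within TRIZOL, PQ replicate 2 stood 1.32 and 1.65 above NAC replicates 1 and 2 on the log2 scale. NAC over control was 0.27 ± 0.21 (edgeR, adjusted p = 0.42), and here the control libraries decided the result: it was 0.74 without control replicate 1 (edgeR, adjusted p = 0.0077) and -0.09 without control replicate 2 (edgeR, adjusted p = 0.79). With preparation as a covariate it was 0.63 (edgeR, adjusted p = 0.0083).

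Ifit3 had 5.25 and 7.81 CPM in control, 35.4 and 23.4 CPM in PQ, and 15.5 and 12.3 CPM in NAC. The groups did not overlap, and NAC lay between control and PQ. It rose in PQ over control by a log2 fold change of 2.18 ± 0.22 (edgeR, adjusted p = 2.8e-06), 4.53-fold, rank 18 of all genes tested, with 2.75 within the column kit and 1.58 within TRIZOL. NAC also raised it over control, by 1.10 ± 0.24 (edgeR, adjusted p = 0.0025), and against control replicate 2 alone, in the same preparation, NAC replicates 1 and 2 stood 0.99 and 0.66 higher on the log2 scale. PQ exceeded NAC by 1.08 ± 0.20 (edgeR, adjusted p = 3.3e-04), and PQ replicate 2 exceeded the NAC libraries, all TRIZOL, by 0.60 and 0.93.

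Ifit2 took a different course, with 76.8 and 63.9 CPM in control, 96.4 and 87.0 CPM in PQ, and 105.9 and 95.2 CPM in NAC. Both treatments lay above control, and the PQ and NAC libraries overlapped. The log2 fold change was 0.38 ± 0.11 in PQ over control (edgeR, adjusted p = 0.020) and 0.52 ± 0.11 in NAC over control (edgeR, adjusted p = 0.0024), and -0.13 ± 0.11 in PQ over NAC (edgeR, adjusted p = 0.38), with -0.28 and -0.13 for PQ replicate 2 over the NAC libraries within TRIZOL. The PQ call was lost when either of these libraries was left out: it was 0.31 without PQ replicate 1 (edgeR, adjusted p = 0.21) and 0.26 without control replicate 2 (edgeR, adjusted p = 0.15). Within preparations it was 0.33 and 0.45. The NAC value against control replicate 2 was 0.73 and 0.58 for the NAC libraries.

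As a level per transcript length, Ifit2 was the most abundant IFIT gene in control, at 18.8 and 15.8 FPKM, against 10.9 and 6.17 FPKM for Ifit1 and 2.57 and 3.86 FPKM for Ifit3. In PQ Ifit1 took the first place, at 41.8 and 28.8 FPKM against 24.4 and 21.6 FPKM for Ifit2 and 17.9 and 11.6 FPKM for Ifit3. In NAC the order was that of control, with 26.8 and 24.4 FPKM for Ifit2, 11.7 and 9.42 FPKM for Ifit1 and 7.82 and 6.29 FPKM for Ifit3. The FPKM ratio of Ifit1 to Ifit2 was 0.578 and 0.390 in control, 1.71 and 1.33 in PQ, and 0.436 and 0.386 in NAC, so it passed 1 in the PQ libraries and in no other.

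Part of the reads behind these values are shared between copies. Ifit3 and Ifit3b are near copies: 51.5% of all windows of 50 bases in the Ifit3 transcript occur in another coding gene, all of them in Ifit3b. For Ifit1 7.13% of the windows are shared, mostly with Ifit1bl2, and for Ifit2 0%. The expected counts of Ifit1 and Ifit3 were fractional in all 6 libraries, as counts become when reads are divided between genes, whereas those of Ifit2 were whole in all. Fractional counts also occurred where no shared window was found: Isg15 had them in 5 libraries and Herc6 in 1, with 0% of their windows in other coding genes. Sequences outside coding transcripts were not searched, so this does not show that these genes share no reads. Ifit3 and Ifit3b together had 120.4 and 108.4 expected counts in control, 639.8 and 378.6 in PQ, and 243.2 and 193.3 in NAC. Ifit3 was given 41.9% and 71.3% of them in the control libraries, against 58.0% and 59.2% in PQ and 68.5% and 64.2% in NAC. The division thus differed most between the control libraries, and the level of either copy by itself is uncertain. Counted as 1 feature, the pair rose by 2.11 on the log2 scale in PQ over control and by 0.84 in NAC over control (edgeR, adjusted p = 0.0051). Ifit3b alone had 7.28 and 3.15 CPM in control, 25.7 and 16.1 CPM in PQ, and 7.10 and 6.86 CPM in NAC. It was higher in PQ than in control by 2.01 ± 0.27 (edgeR, adjusted p = 5.5e-05). In NAC over control it was at 0.42 ± 0.31 (edgeR, adjusted p = 0.39), with 1.15 without control replicate 1 (edgeR, adjusted p = 0.016) and -0.07 without control replicate 2 (edgeR, adjusted p = 0.91). With preparation as a covariate it was 0.91 (edgeR, adjusted p = 0.014). Ifit1 summed with Ifit1bl1 and Ifit1bl2 gave 1.98 in PQ over control and 0.28 in NAC over control, and Ifit1 held between 87.2% and 93.7% of those counts. Ifit1bl1 lay below the filter, with 4.45 and 3.73 expected counts in control, 38.6 and 8.57 in PQ, and 7.79 and 9.05 in NAC. Its value of 2.49 in PQ over control rests on PQ replicate 1, without which it was 1.17 (edgeR without the filter, adjusted p = 0.59). Ifit1bl2, also below the filter, was at 1.20 in PQ over control (edgeR without the filter, adjusted p = 0.0021) and at 0.91 without PQ replicate 2 (adjusted p = 0.17).

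**Figure D3:**
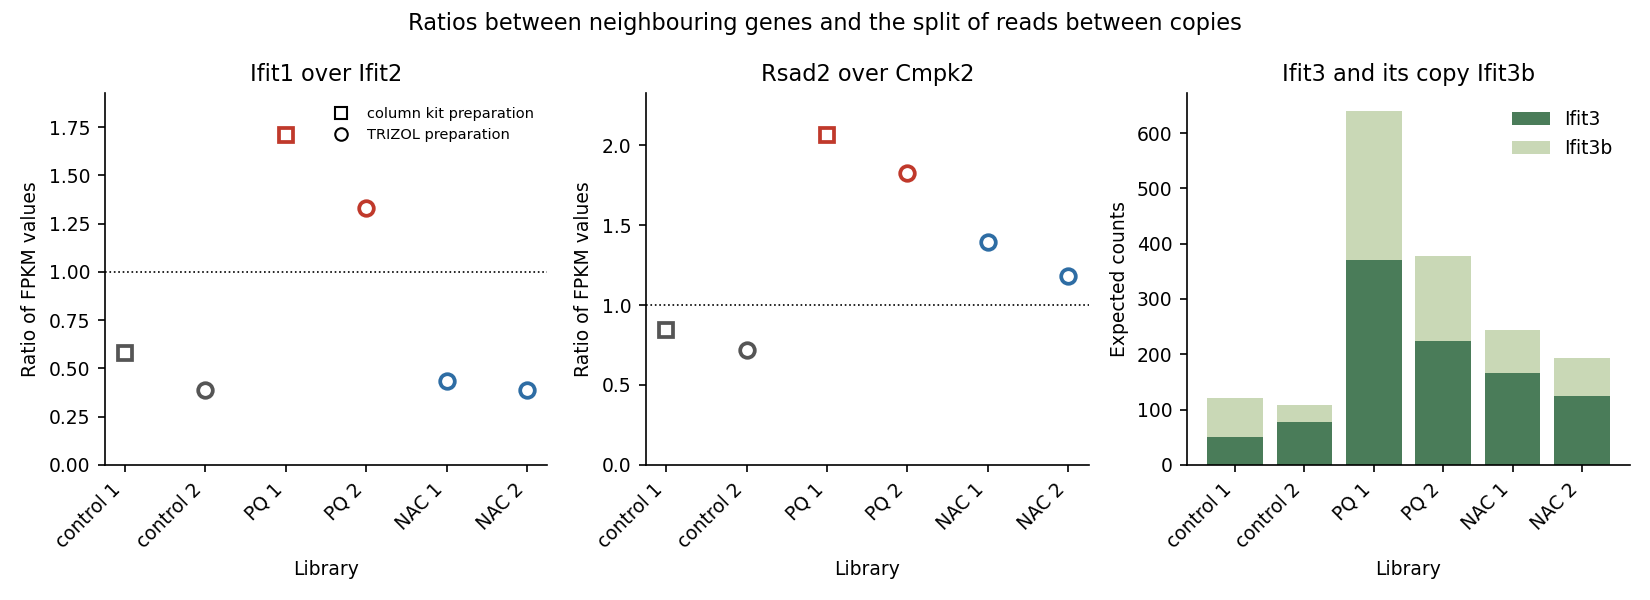
Ratio of FPKM values of Ifit1 to Ifit2 (left) and of Rsad2 to Cmpk2 (middle), and expected counts of Ifit3 and Ifit3b stacked (right), in each of the 6 libraries (x axis); the dotted line is a ratio of 1, squares are column kit and circles TRIZOL preparations. Ifit1 exceeded Ifit2 in the PQ libraries alone (1.71 and 1.33), Rsad2 exceeded Cmpk2 in PQ and NAC but not in control, and Ifit3 held 41.9% of the pair's counts in control replicate 1 and 71.3% in control replicate 2.

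Rsad2 (58185) and Cmpk2 (22169) are neighbours on chromosome 12 and are transcribed away from each other, Rsad2 at chr12:27127618-27141317 on the minus strand and Cmpk2 at chr12:27154069-27164700 on the plus strand, with 12751 bases between them. CMPK2 is a mitochondrial kinase of pyrimidine nucleotides, and RSAD2 (viperin) is a radical SAM enzyme that turns CTP into a chain terminator of viral polymerases. Rsad2 was at 21.8 and 18.0 CPM in control, 103.0 and 75.2 CPM in PQ, and 33.2 and 29.0 CPM in NAC. The groups did not overlap, with NAC between control and PQ. Its rise in PQ, 2.17 ± 0.15 on the log2 scale or 4.49-fold, had the smallest adjusted p of the set (edgeR, 9.5e-08), and was 2.24 within the column kit and 2.06 within TRIZOL. Rsad2 was higher in NAC than in control by 0.65 ± 0.16 (edgeR, adjusted p = 0.0068), a call that was lost without NAC replicate 1 (0.54). Against control replicate 2 alone, in the same preparation, NAC replicates 1 and 2 stood 0.89 and 0.69 higher on the log2 scale. With preparation as a covariate the value was 0.85. PQ exceeded NAC by 1.52 ± 0.14 (edgeR, adjusted p = 2.3e-07), with 1.18 and 1.38 for PQ replicate 2 over the NAC libraries within TRIZOL. All its counts were whole.

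Cmpk2 was at 21.9 and 21.1 CPM in control, 42.3 and 34.9 CPM in PQ, and 20.2 and 20.7 CPM in NAC. Only the PQ libraries stood out, and NAC lay just under control. It rose in PQ over control by 0.85 ± 0.13 on the log2 scale (edgeR, adjusted p = 2.5e-04), with 0.95 and 0.72 within preparations, and exceeded NAC by 0.92 ± 0.13 (edgeR, adjusted p = 3.9e-05), with 0.79 and 0.75 for PQ replicate 2 over the NAC libraries within TRIZOL. NAC over control was -0.07 ± 0.14 (edgeR, adjusted p = 0.79), and 0.02 with preparation as a covariate. In FPKM, Rsad2 stood at 0.844 and 0.721 times Cmpk2 in control, at 2.07 and 1.83 times in PQ, and at 1.39 and 1.19 times in NAC. The balance of the neighbours thus turned in both treatments, further in PQ, though whether the fold changes of both genes differ was not tested. Cmpk1, which encodes the cytosolic UMP-CMP kinase, of another enzyme family, was at -0.06 ± 0.10 in PQ over control (edgeR, adjusted p = 0.77).

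Isg15 (100038882) encodes the modifier itself and lies at chr4:155573533-155574927 on the minus strand of mm9. It had 24.1 and 23.9 CPM in control, 56.5 and 38.8 CPM in PQ, and 20.3 and 19.2 CPM in NAC. The control libraries lay close together, both PQ libraries above them and both NAC libraries below. It rose in PQ over control by 0.99 ± 0.15 (edgeR, adjusted p = 1.8e-04), 1.99-fold, with 1.23 within the column kit and 0.70 within TRIZOL. NAC over control was -0.28 ± 0.16 (edgeR, adjusted p = 0.26), and PQ exceeded NAC by 1.27 ± 0.15 (edgeR, adjusted p = 5.0e-06), with 0.94 and 1.02 for PQ replicate 2 over the NAC libraries within TRIZOL. Per transcript length Isg15 was the most abundant gene of the set in every library, at 32.1 and 32.2 FPKM in control, 77.9 and 52.6 FPKM in PQ, and 28.0 and 26.7 FPKM in NAC. Its lead over Ifit2, at 26.8 and 24.4 FPKM, was narrow in NAC.

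The E1 enzyme UBA7, which activates ISG15, is encoded by the scarcest gene of the set. Uba7 (74153) had 11 and 7 expected counts in control, 37 and 26 in PQ, and 15 and 18 in NAC, all whole numbers. The groups did not overlap. In the fit without the filter, the log2 fold change was 1.75 ± 0.43 in PQ over control (edgeR, adjusted p = 6.8e-04), 0.77 ± 0.47 in NAC over control (edgeR, adjusted p = 0.33) and 0.97 ± 0.38 in PQ over NAC (edgeR, adjusted p = 0.043). Within preparations PQ over control was 1.63 and 1.94. The first value was 1.54 without PQ replicate 1 (edgeR, adjusted p = 0.082), was not called by limma on log2(FPKM + 0.1) (adjusted p = 0.059) and had no adjusted p in DESeq2 (1.75); limma on log2(FPKM + 1) called it at 0.63 (adjusted p = 0.042). The last was not called by DESeq2 (0.97, adjusted p = 0.28) or limma (0.40 with 1 added and 0.84 with 0.1 added, adjusted p = 0.059 and 0.13), and it was between 0.77 and 1.16 without any 1 of the PQ or NAC libraries (edgeR, adjusted p between 0.084 and 0.36), so its values are uncertain at this depth. With preparation as a covariate PQ over NAC was 0.72 (edgeR, adjusted p = 0.33), and PQ replicate 2 stood 0.96 and 0.60 above the NAC libraries within TRIZOL. For tested genes of the set, the fit without the filter gave smaller p-values in PQ over control than the fit with it. For Ifit1 the adjusted p was 8.6e-55 against 1.7e-06 (edgeR), at a log2 fold change of 2.02 in both. Its p-values for Uba7, Tubb3, Dcn, Ifit1bl1 and Ifit1bl2 thus cannot be set beside those of the fit with the filter.

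The E2 enzyme UBE2L6 receives ISG15 from the E1. Ube2l6 (56791) had 30.6 and 27.9 CPM in control, 41.8 and 39.1 CPM in PQ, and 25.0 and 23.6 CPM in NAC. As with Isg15, the libraries fell in the order PQ, control, NAC without overlap. PQ over control was 0.47 ± 0.12 (edgeR, adjusted p = 0.010), with 0.45 and 0.48 within preparations. It was 0.42 without PQ replicate 1 (edgeR, adjusted p = 0.12) and 0.40 without control replicate 2 (edgeR, adjusted p = 0.054). NAC over control was -0.27 ± 0.13 (edgeR, adjusted p = 0.15), and PQ exceeded NAC by 0.73 ± 0.12 (edgeR, adjusted p = 1.5e-04), with 0.64 and 0.73 for PQ replicate 2 over the NAC libraries within TRIZOL. Its counts were fractional in all 6 libraries, and 4.63% of its transcript windows occur in other coding genes, mostly Pigl.

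HERC6 is the main E3 ligase for ISG15 in the mouse. Herc6 (67138) had 25.2 and 24.2 CPM in control, 45.6 and 42.3 CPM in PQ, and 34.5 and 25.8 CPM in NAC. PQ stood highest, and both NAC libraries lay between PQ and control, NAC replicate 2 just above control replicate 1. PQ over control was 0.83 ± 0.14 (edgeR, adjusted p = 3.5e-04), with 0.85 and 0.81 within preparations. PQ exceeded NAC by 0.54 ± 0.13 (edgeR, adjusted p = 0.0044), which became 0.35 without NAC replicate 2 (edgeR, adjusted p = 0.10) and 0.49 without PQ replicate 1 (edgeR, adjusted p = 0.051). Within TRIZOL, PQ replicate 2 stood 0.30 above NAC replicate 1 and 0.71 above NAC replicate 2. NAC over control was 0.29 ± 0.14 (edgeR, adjusted p = 0.17), 0.06 without NAC replicate 1 (edgeR, adjusted p = 0.86) and 0.48 without NAC replicate 2 (edgeR, adjusted p = 0.047).

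USP18 works against the 3 enzymes: it takes ISG15 off its targets, and it also sits on the interferon receptor with STAT2 and damps the signal. Usp18 (24110) had 10.4 and 11.1 CPM in control, 37.1 and 24.5 CPM in PQ, and 13.3 and 10.2 CPM in NAC. The PQ libraries stood apart, and NAC and control overlapped. Of the genes that act on ISG15 and passed the filter, the protease gene had the largest log2 fold change in PQ over control, 1.52 ± 0.19 (edgeR, adjusted p = 2.6e-05), 2.87-fold, with 1.83 within the column kit and 1.14 within TRIZOL. PQ exceeded NAC by 1.39 ± 0.19 (edgeR, adjusted p = 1.6e-05), with 0.89 and 1.26 for PQ replicate 2 over the NAC libraries within TRIZOL. NAC over control was 0.13 ± 0.21 (edgeR, adjusted p = 0.73) and changed sign without NAC replicate 1 (-0.07, edgeR, adjusted p = 0.90). Whether the fold changes of the enzymes and of the protease differ was not tested. Per transcript length, Usp18 stood at 0.179 and 0.192 times Isg15 in control, 0.271 and 0.261 times in PQ, and 0.270 and 0.220 times in NAC.

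**Figure D4:**
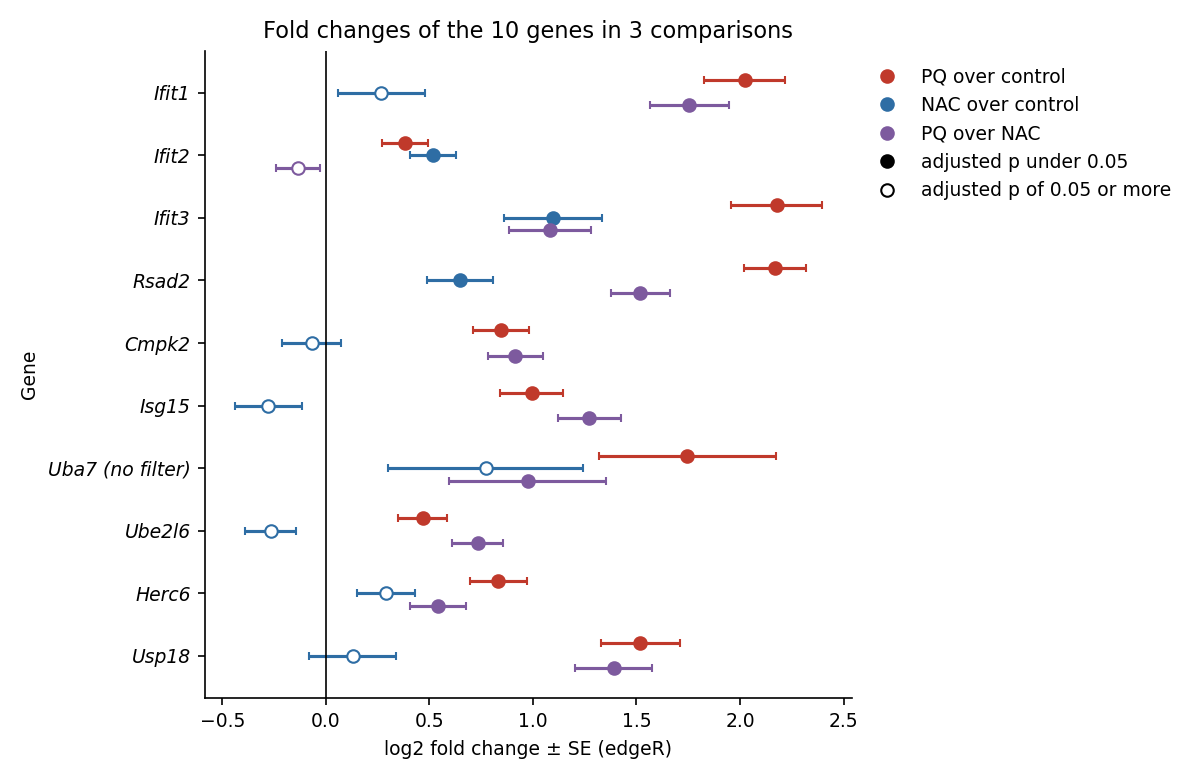
Log2 fold change with its SE (x axis, edgeR) of the 10 genes (y axis) in PQ over control, NAC over control and PQ over NAC, filled where the adjusted p was under 0.05; Uba7 comes from the fit without a filter. PQ over control runs from 0.38 for Ifit2 to 2.18 for Ifit3, and NAC over control is filled for Ifit2, Ifit3 and Rsad2.

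Side by side in the plot of fold changes, the genes fall in an order in PQ over control. Ifit3, Rsad2 and Ifit1 stood together above 2 on the log2 scale, within an SE of each other, followed by Uba7 at 1.75, with the widest SE and from the fit without the filter, and Usp18 at 1.52, then by Isg15, Cmpk2 and Herc6 between 0.83 and 0.99, and by Ube2l6 and Ifit2 at 0.47 and 0.38. The order in NAC over control was another, with Ifit3 at the top, then Uba7, which was not called, Rsad2 and Ifit2, and with Isg15 and Ube2l6 at the bottom. In NAC over control 2 IFIT genes and Rsad2 thus rose, at an adjusted p under 0.05 by edgeR with all libraries. None of the set's tested genes of the ISG15 pathway did, where 9.01% of all genes tested were higher. Among so few genes, a lack of calls is near that share. With preparation as a covariate edgeR also called Ifit1 (0.63), and Herc6 was at 0.48 without NAC replicate 2. The direct difference between the genes was not tested.

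The enzyme genes were set beside relatives that serve other pathways: the E1 genes Uba1, Uba2, Uba3 and Uba6, the E2 gene Ube2l3, the HERC genes Herc1 to Herc4 and, related by reaction and not by family, the nucleotide kinase gene Cmpk1. All 10 were tested. None was higher than control in PQ, with 1 lower and a median of -0.04, and none in NAC, with 1 lower and a median of -0.05; none was higher in either by DESeq2 or limma, or at an unadjusted p under 0.05 by edgeR. With 9.76% of all genes higher and 9.45% lower in PQ, and 9.01% and 9.64% in NAC, these counts are near the share over all genes. Uba2, part of the E1 for SUMO, was the lower gene in PQ, at -0.45 ± 0.09 (edgeR, adjusted p = 0.0018), and at -0.40 without PQ replicate 1 (edgeR, adjusted p = 0.054). Uba1, the main E1 for ubiquitin, was the lower gene in NAC, at -0.26 ± 0.09 (edgeR, adjusted p = 0.047), a call lost without any 1 library but control replicate 1, with values from -0.26 to -0.21 and adjusted p between 0.071 and 0.19. Ube2l3, the closest relative of Ube2l6, was at 0.02 ± 0.09 in PQ over control (edgeR, adjusted p = 0.92). In PQ over NAC 2 were higher, Uba1 (0.24) and Herc3 (0.37), and 2 lower, Uba2 (-0.32) and Herc1 (-0.35), with a median of 0.03. Across all genes tested 16.0% were higher and 15.7% lower in PQ than in NAC, so these counts too are near that share. Limma called 0 of the 10 higher and 1 lower in PQ over NAC. None of these 4 calls of edgeR held without PQ replicate 1, where the values were 0.21, 0.31, -0.28 and -0.35 in the same order, or without NAC replicate 1, where they were 0.25, 0.32, -0.30 and -0.35. Those of Uba1 and Herc1 were also lost without PQ replicate 2 (0.28 and -0.35) or NAC replicate 2 (0.24 and -0.36). With preparation as a covariate, edgeR called none of the 4 in PQ over NAC (0.25, 0.37, -0.30 and -0.33, adjusted p between 0.055 and 0.12), nor Uba1 in NAC over control (-0.26, adjusted p = 0.13).

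**Figure D5:**
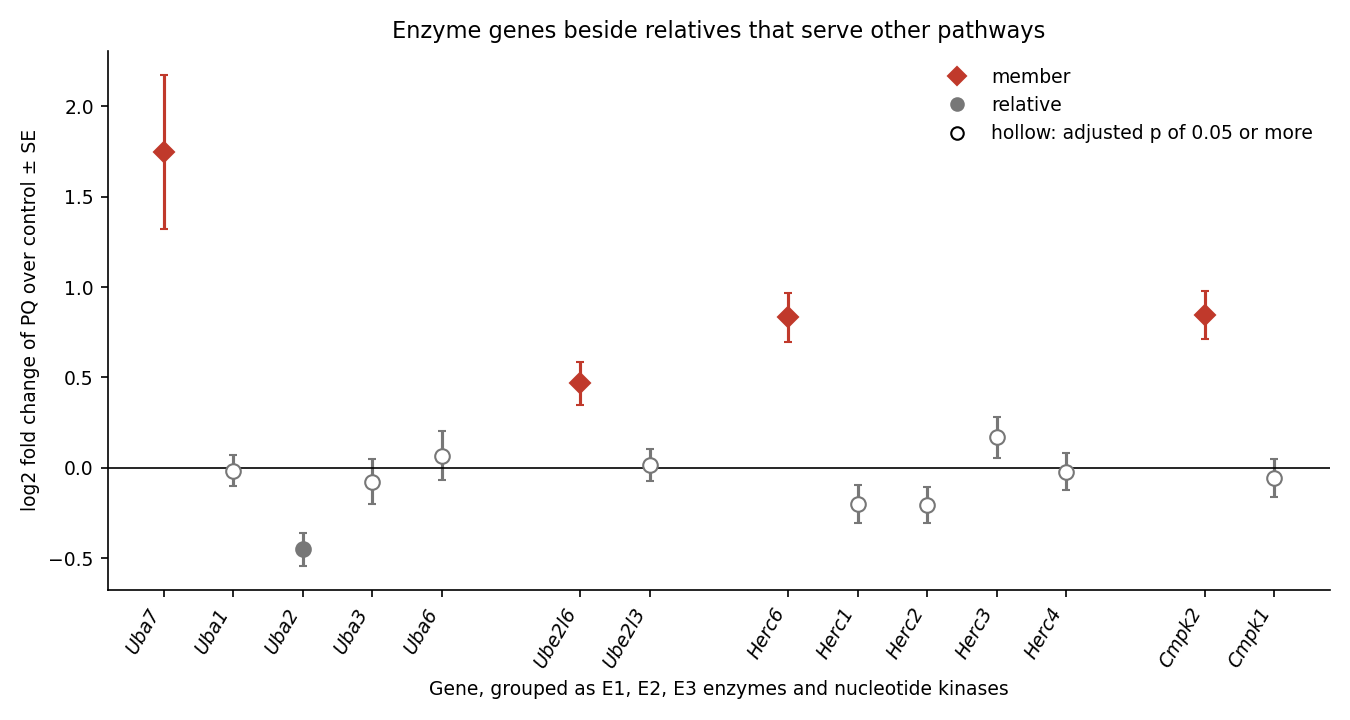
Log2 fold change of PQ over control with its SE (y axis, edgeR) of Uba7, Ube2l6, Herc6 and Cmpk2 (diamonds) beside their relatives (circles), grouped by role along the x axis; hollow symbols had an adjusted p of 0.05 or more, and Uba7 comes from the fit without a filter. Among the relatives only Uba2, at -0.45, is filled.

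In the plot of relatives, each enzyme gene of the ISG15 pathway stood above all relatives of its own kind; whether their fold changes differ was not tested. Uba7 at 1.12 and 0.85 FPKM in PQ still lay far under Uba1, whose FPKM ran from 111.3 to 135.0 over the 6 libraries.

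Other genes of the ISG15 pathway were few: Trim25, an E3 ligase that is itself an ISG, Arih1, another E3 that can take ISG15, Itgal, part of the receptor LFA-1 for free ISG15, and Stat2 and Ifnar2, the partners of USP18. Of the 5, 4 passed the filter, and Itgal had 0 to 7 counts. In PQ over control 2 of the 4 rose, where 9.76% of all genes tested were higher, and the median was 0.29. Trim25 was at 53.3 and 65.4 CPM in control, 96.2 and 82.4 CPM in PQ, and 75.2 and 79.0 CPM in NAC, and rose in PQ by 0.59 ± 0.11 (edgeR, adjusted p = 0.0013), with 0.85 and 0.33 within preparations. Stat2 rose by 0.49 ± 0.11 (edgeR, adjusted p = 0.0048), a call lost without PQ replicate 1 (0.37, edgeR, adjusted p = 0.12). In NAC over control Trim25 was higher (0.38, edgeR, adjusted p = 0.027) and Arih1 lower (-0.36, edgeR, adjusted p = 0.010), and neither call held without control replicate 1, NAC replicate 1 or NAC replicate 2, with values from 0.24 to 0.41 for Trim25 and -0.36 to -0.30 for Arih1, nor with preparation as a covariate (0.37, adjusted p = 0.075, and -0.33, adjusted p = 0.061). Across all genes tested 9.01% were higher and 9.64% lower in NAC than in control. In PQ over NAC 2 of the 4 were higher, Stat2 and Arih1, where 16.0% of all genes tested were higher, and the median was 0.32. The call of Stat2 was lost without PQ replicate 1 or NAC replicate 1, with the values given below.

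The genes of interferon signalling upstream of the set were followed as a list of 8, of which 7 passed the filter. Ifnb1, which encodes interferon beta, had 1 count in PQ replicate 1, 1 in NAC replicate 1 and 0 in the other libraries, and was not detectable at this depth. In PQ over control 3 of the 7 rose, Irf7, Irf9 and Stat2, where 9.76% of all genes tested were higher, and the median was 0.36. Irf7, a transcription factor that is both ISG and inducer of interferon genes, was at 24.1 and 18.3 CPM in control, 59.8 and 47.1 CPM in PQ, and 17.0 and 19.2 CPM in NAC. Its PQ libraries stood apart, NAC and control overlapped, and the log2 fold change was 1.34 ± 0.15 in PQ over control (edgeR, adjusted p = 7.6e-06) and -0.23 ± 0.16 in NAC over control (edgeR, adjusted p = 0.37). In NAC over control none of the 7 was called by edgeR, DESeq2 or limma, 1 (Ifnar1) had an unadjusted p under 0.05 by edgeR, and the median was -0.04. Across all genes tested 9.01% were higher and 9.64% lower in NAC than in control, so for 7 genes a lack of calls is near that share. Irf9 rose by 0.61 ± 0.13 in PQ over control (edgeR, adjusted p = 0.0036), with 0.45 without PQ replicate 1 (edgeR, adjusted p = 0.11). In PQ over NAC 4 of the 7 were higher, Irf7 (1.57), Tyk2 (0.55), Irf9 (0.51) and Stat2 (0.42), with a median of 0.42. Across all genes tested 16.0% were higher in PQ than in NAC. Irf7 was called by edgeR without any 1 library, whereas Stat2 (0.30) and Irf9 (0.35) were not called without PQ replicate 1, and Stat2 (0.41), Irf9 (0.44) and Tyk2 (0.40) not without NAC replicate 1. With preparation as a covariate Irf9 was not called in PQ over NAC either (0.39, edgeR, adjusted p = 0.064). The receptor genes Ifnar1 and Ifnar2 and the kinase gene Jak1 were at 0.09, 0.08 and 0.02 on the log2 scale in PQ over control, and none passed the test.

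Across the 6 libraries, the tested genes outside the set whose log2 CPM was most like the mean standardized log2 CPM of the 9 were Slc25a37, Efr3b, Psmd1, Smap2 and Cd68, with Pearson's r between 0.993 and 0.997. This likeness is of shape and not of size: in PQ over control edgeR called Efr3b (0.82, adjusted p = 0.0057) and Psmd1 (0.33, adjusted p = 0.013), both lost without PQ replicate 1 (0.68 and 0.27), but not Slc25a37 (0.23, adjusted p = 0.11), Smap2 (0.15, adjusted p = 0.37) or Cd68 (1.05, adjusted p = 0.093). Cd68, a macrophage marker that is not in the list above, had 1.01 to 2.58 CPM. It gained a call in PQ over control under 2 alternatives, and its values ran from 0.64 to 1.25 over all alternatives. With 6 libraries in 3 groups this r only describes a pattern with PQ at the top.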

How the data were processed

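For each library the authors deposited, per NCBI gene, an expected count (an estimate that divides reads between genes and need not be whole) and an FPKM value, scaled to length and depth. The submitters' processing notes name TopHat2 2.0.11, Cufflinks 2.1.1 and mm9 for 2 libraries (control replicate 1 and PQ replicate 1) and HISAT2 2.0.4, Bowtie2 2.2.5, RSEM and mm10 for the other 4. All 6 tables nevertheless have the same columns, with expected counts as RSEM writes them, so how those 2 were counted, and how they divided reads between Ifit3 and Ifit3b, is uncertain. In the notes the builds differ, and the methods name mm9, so coordinates are given on mm9 (GENCODE vM1). Whether counting used strand is not given in the sources used here.

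Here symbols were matched to 99.7% of gene identifiers, and genes left out of a table were taken as 0. Expected counts were rounded and tested with edgeR 4.0.16 in R 4.3.3 (TMM, glmQLFit and glmQLFTest, two-sided, no covariate, all 6 libraries) where FPKM averaged 1 or more. Calls used p-values under 0.05 after adjustment by Benjamini-Hochberg, and an SE is the absolute log2 fold change over the root of F. No fold is given where no library exceeded 3 counts. The code was tested on simulated data. The alternatives were DESeq2 1.42.0, limma 3.58.1 on log2(FPKM + 1) and log2(FPKM + 0.1), DESeq2's size factors, no filter, preparation as a covariate, only the 4 libraries compared, each library left out, and paralogs summed. The genes named are the 10 members, the lists given in the text and the 5 genes most like them. Some listed genes, and the comparison of Isg15 with other modifier genes, are not reported here, and counts of lists leave them out. Members and lists were chosen with earlier results of these data known.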

Additional observations from a re-analysis of the deposited data

How the results depend on the processing

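The number of genes of the set higher in PQ than in control was 9 under each alternative but for 10 without the filter on low values, which adds Uba7, and 7 without PQ replicate 1 or without control replicate 2. In NAC over control it was 3, with 4 when preparation was a covariate and between 2 and 4 when a library was left out, and in PQ over NAC it was 8, with 9 without the filter and between 7 and 8 when a library was left out. Where a group keeps 1 library, that library is assumed to vary like the other groups. For single genes, 1203 values were recomputed: 1045 kept their direction and side of the threshold, 143 kept only their direction and lost the call, 7 gained a call, 4 had no adjusted p in DESeq2 (Uba7, Ifit1bl1, Tubb3 and Dcn in PQ over control) and 4 changed sign. Those that changed sign belong to genes not called in NAC over control: Ifit1 lay between -0.09 and 0.74, Ifit3b between -0.067 and 1.15 and Usp18 between -0.075 and 0.30 when a library was left out, and Cmpk2 was at 0.018 with preparation as a covariate. The cause was not tested. Of 252 recomputed counts of the other gene lists, 42 moved by over 1.5 times, as counts of 1 to 4 genes readily do. Control and PQ each hold 1 library of either preparation, and the fit with preparation as a covariate compares them within it; the labels give no other pairing. Depth limits Uba7, with 7 to 37 counts in a library, and Ifnb1, with at most 1.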

Other observations

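Messenger RNA was measured, not ISG15 conjugates or IFIT protein. The 2 libraries per group were prepared by different protocols for control and PQ and by 1 protocol for NAC. Processing, as the notes give it, was split in the same way and cannot be told apart from the protocol. Without a covariate, values of NAC over control, and in part those of PQ over NAC, therefore carry the preparation with them. Ifit3 and Ifit3b are uncertain one by one, and their sum is the safer value.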
